A study of Mus musculus with 8 samples.

Results

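The interferon regulatory factors (IRFs) measured here were 8 genes, Irf1, Irf2, Irf3, Irf4, Irf5, Irf7, Irf8 and Irf9, out of 55487 genes in each library, chosen by symbol after Ensembl identifiers were matched to the GRCm38 annotation. The libraries came from C57BL/6 mice with subcutaneous tumors of B16F10, a mouse melanoma line, and were labelled as flow-sorted CD8+ tumor-infiltrating lymphocytes. Of the 8 libraries, 4 came from mice given tacrolimus (FK506) intraperitoneally at 3 mg/kg every 5 days. The other 4 came from mice given vehicle intraperitoneally every 5 days. The series text calls the second group untreated, whereas the titles and treatment labels say vehicle. Dosing began 7 to 9 days after tumor injection, at about 50 mm3, and harvest followed 6 days after dosing began. Age and sex were not in the labels used here, and all mice carried the same tumor line with no genetic change named.

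IRFs are transcription factors that share an amino-terminal DNA-binding domain and recognise repeats of GAAA, the core of the interferon-stimulated response element (ISRE). Interferon receptors signal through JAK kinases and STAT proteins: Irf9 is part of the complex ISGF3, which binds the ISRE, while interferon gamma induces Irf1 through the gamma-activated site (GAS). Irf3, Irf5 and Irf7 are latent factors activated behind pattern-recognition receptors, and Irf4 and Irf8 act largely in lymphoid and myeloid cells. Tacrolimus blocks the phosphatase calcineurin and so the NFAT factors that act downstream of the T cell receptor.

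Promoter windows of Irf1, Irf2 and Irf8 are shown because these were the members with a match to either interferon element. A window of Irf9 is shown because Irf9 is part of ISGF3. Windows of RefSeq (build GRCm38.p6), from 250 bases before to 50 bases after an annotated start, were matched for all 8 members, 11 windows in all. GAS was searched as TTCNNNGAA, which reads the same on both strands, and the ISRE core as GAAA, any 2 bases and GAAA, on both strands. GAS was in 3 of the 11 member windows and in 8.30% of 32851 windows of all genes, and the ISRE core in 1 of 11 and in 3.44%. All 4 windows lie on the plus strand, at chr11:53769764-53770063 for Irf1, chr8:46739495-46739794 for Irf2, chr8:120736108-120736407 for Irf8 and chr14:55603735-55604034 for Irf9. Each is written 5′ to 3′ in lower case, and capitals mark the matches.
Irf1: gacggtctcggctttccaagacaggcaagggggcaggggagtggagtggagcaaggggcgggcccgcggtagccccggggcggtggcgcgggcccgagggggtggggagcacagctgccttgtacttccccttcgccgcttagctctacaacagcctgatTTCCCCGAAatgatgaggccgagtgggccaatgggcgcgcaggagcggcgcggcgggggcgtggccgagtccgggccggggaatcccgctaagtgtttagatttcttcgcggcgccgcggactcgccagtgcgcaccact
Irf2: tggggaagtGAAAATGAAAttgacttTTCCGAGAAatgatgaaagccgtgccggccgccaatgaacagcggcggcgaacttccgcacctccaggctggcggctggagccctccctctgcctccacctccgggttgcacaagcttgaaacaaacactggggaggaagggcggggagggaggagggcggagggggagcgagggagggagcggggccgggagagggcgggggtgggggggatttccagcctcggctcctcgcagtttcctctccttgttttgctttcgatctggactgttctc
Irf8: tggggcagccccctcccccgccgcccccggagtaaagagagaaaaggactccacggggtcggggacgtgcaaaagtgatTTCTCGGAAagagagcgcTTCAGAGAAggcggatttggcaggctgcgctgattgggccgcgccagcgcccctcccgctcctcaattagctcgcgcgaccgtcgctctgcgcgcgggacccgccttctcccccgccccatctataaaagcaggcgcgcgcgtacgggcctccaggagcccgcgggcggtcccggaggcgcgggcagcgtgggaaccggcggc
Irf9: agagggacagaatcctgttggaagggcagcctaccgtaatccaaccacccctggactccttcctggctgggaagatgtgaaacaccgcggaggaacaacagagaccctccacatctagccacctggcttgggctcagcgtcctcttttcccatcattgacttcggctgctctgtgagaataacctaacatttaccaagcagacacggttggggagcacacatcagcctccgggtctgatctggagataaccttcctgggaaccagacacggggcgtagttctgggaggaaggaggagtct
The Irf1 window holds TTCCCCGAA, which begins 90 bases before the start. The Irf8 window holds TTCTCGGAA and TTCAGAGAA, beginning 171 and 153 bases before the start. The Irf2 window holds the ISRE core match GAAAATGAAA at 241 bases and TTCCGAGAA at 224 bases before the start. The windows of Irf3, Irf4, Irf5, Irf7 and Irf9 hold neither set of letters. Irf1, Irf8 and Irf9 each have a further window, which lies downstream, is not shown and holds no match. Both Irf9 windows lie inside the gene as annotated (55603571 to 55610030). Bases before that annotated start were therefore not searched, and nothing is read from the absence of a match for Irf9. These are matches of letters and not measured binding sites.

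Levels are FPKM, which divides the fragments of a gene by its transcript length and by the library total, so genes can be compared with each other within a library. The libraries held an estimated 15500000 to 19500000 fragments and 12724 to 13628 genes at 1 FPKM or more. Melanoma transcripts were abundant in every library: the 13 melanoma markers summed to 22782 to 27952 FPKM with tacrolimus and 19238 to 34903 with vehicle. The 18 T cell markers summed to 74.3 to 549 and 546 to 2644 FPKM, the 16 macrophage and monocyte markers to 252 to 590 and 526 to 2149, and the 12 dendritic cell markers to 320 to 512 and 475 to 2453. Of the 12 dendritic cell markers 8 were tested, and Xcr1, Clec9a, Itgax and Siglech did not reach 1 FPKM in at least 4 libraries. No marker on any of the 7 lists was at 0 in every library. The mean log2(FPKM + 1) of 18 pan-leukocyte markers, called the leukocyte level below, was 3.35 to 4.75 with tacrolimus and 4.89 to 6.71 with vehicle, without overlap. It was lowest in tacrolimus replicate 2 and highest in vehicle replicate 1, the library that stood apart most. In such mixed RNA, fewer cells of a type and less RNA per cell cannot be told apart.

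All 8 members had a lower mean level in the tacrolimus mice than in the vehicle mice, where 75.7% of all genes tested had a lower mean log2 value. Irf9 showed the cleanest separation, with 5.49 to 6.99 FPKM against 11.20 to 12.48, and Irf1, Irf2, Irf3, Irf5 and Irf8 also did not overlap between the groups. Those 6 were among the 7 members tested, and 10.2% of the 13032 genes tested were lower without overlap and 0.767% higher. In limma no gene was called at an adjusted p of 0.05, members included (0% called). All 7 tested members had an unadjusted p under 0.05, a level that 15.8% of genes tested reached in the lower direction and 1.60% in the higher. At that level 2056 genes were lower and 208 higher as deposited, and 735 lower and 741 higher after median-of-ratios scaling. Under that scaling all 7 members still had a lower mean, but 3 of the 7, Irf1, Irf8 and Irf9, were under 0.05 unadjusted in limma, and Irf2, Irf3, Irf5 and Irf7 were above it. Upper-quartile scaling likewise left Irf2, Irf3 and Irf7 above 0.05. Differences are in log2(FPKM + 1), which understates the change of low genes. The median log2 difference was -1.04 over the 7 tested members and -0.19 over all genes tested. Irf4 was not tested, because only 3 libraries reached 1 FPKM.

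**Figure D1:**
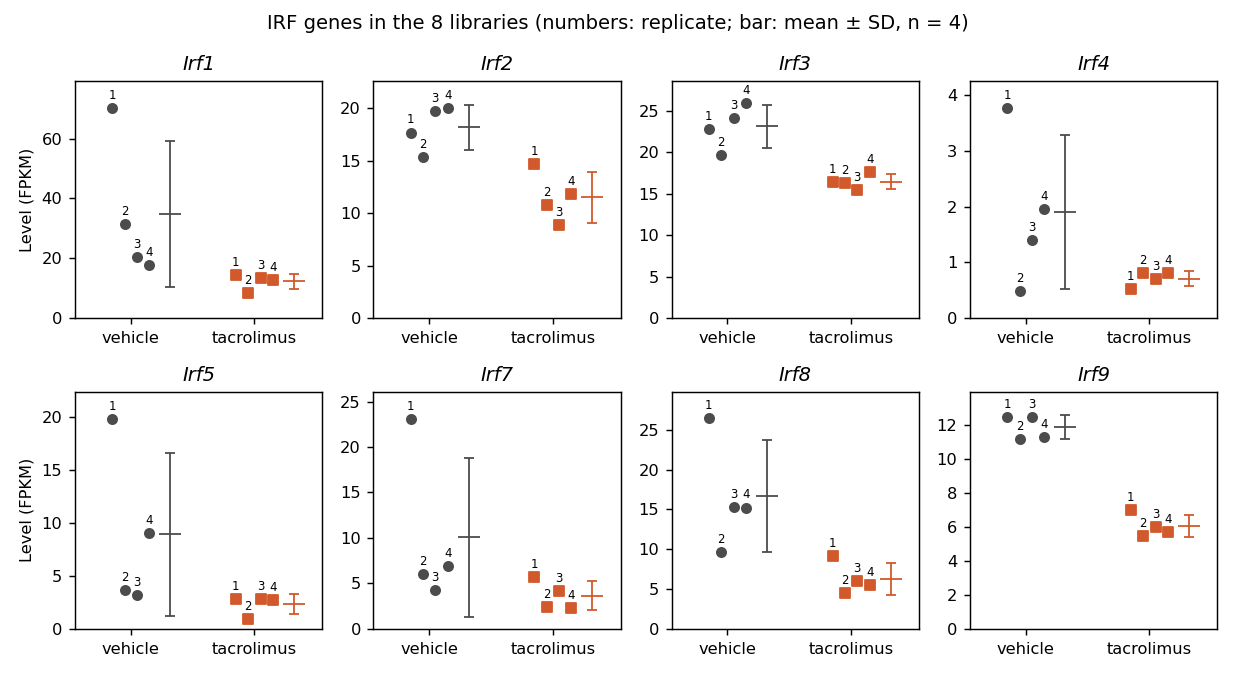
Level of each IRF gene (FPKM, linear axes from 0) in 4 vehicle (circles) and 4 tacrolimus (squares) libraries, numbered by replicate, with the mean ± SD at the side. Irf9 lies at 11.20 FPKM or more in each vehicle library and at 6.99 or less in each tacrolimus library, while vehicle replicate 1 is the highest point for Irf1, Irf4, Irf5, Irf7, Irf8 and Irf9.

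Irf9 is the DNA-binding subunit of ISGF3 (ENSMUSG00000002325; GRCm38 chromosome 14, 55603571 to 55610030). It was at 6.99, 5.49, 6.00 and 5.70 FPKM in tacrolimus replicates 1 to 4 and at 12.48, 11.20, 12.45 and 11.29 in vehicle replicates 1 to 4. The vehicle libraries lay within 1.11-fold of each other, the narrowest vehicle range of the 8 members, and all of them were above every tacrolimus library. The means were 6.05 ± 0.66 and 11.9 ± 0.71 FPKM (SD, n = 4 each), or 1.96-fold higher with vehicle. The log2 difference was -0.87 (SE 0.15, limma adjusted p = 0.147), which placed Irf9 at rank 13 of 13032 genes by unadjusted p (0.000172). After median-of-ratios scaling the difference was -0.67 and the rank 86, and after upper-quartile scaling the rank was 76. The annotation has Irf9 overlapping Rnf31 by 123 bases on the same strand.

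Irf1, an activator that interferon gamma induces, had the highest vehicle mean of the family (ENSMUSG00000018899; chromosome 11, 53770014 to 53778374). Its levels were 14.43, 8.54, 13.53 and 12.60 FPKM with tacrolimus and 70.27, 31.32, 20.34 and 17.63 with vehicle. The vehicle libraries spread 3.99-fold, and the lowest of them was still above the highest tacrolimus library. The means were 12.3 ± 2.60 and 34.9 ± 24.3 FPKM, and the vehicle mean was 23.1 without replicate 1. The log2 difference was -1.24 (SE 0.38, limma adjusted p = 0.195). Gm17334, annotated on the opposite strand inside Irf1, was at 0.37 to 2.03 FPKM with tacrolimus and 1.76 to 12.91 with vehicle. No strand setting is given in the sources used here, so reads of this pair cannot be told apart.

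Irf2, which binds the same element as Irf1 and mainly opposes it, had non-overlapping groups (ENSMUSG00000031627; chromosome 8, 46739732 to 46847458). It was at 14.65, 10.79, 8.84 and 11.79 FPKM with tacrolimus and 17.68, 15.35, 19.70 and 20 with vehicle. The gap between the groups was narrow, from tacrolimus replicate 1 to vehicle replicate 2. The means were 11.5 ± 2.42 and 18.2 ± 2.15 FPKM, and the groups differed by -0.63 in log2 (SE 0.18, limma adjusted p = 0.193). After median-of-ratios scaling, which moved the median gene from -0.19 to 0.01, the Irf2 difference was -0.42.

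Irf3, the latent factor that TBK1 phosphorylates after sensing of nucleic acids, varied least among the tacrolimus libraries, with a coefficient of variation of 5.53% (ENSMUSG00000003184; chromosome 7, 44997648 to 45002848). Its tacrolimus levels of 16.41, 16.28, 15.41 and 17.62 FPKM were all below its vehicle levels of 22.74, 19.71, 24.08 and 25.92. The means were 16.4 ± 0.91 and 23.1 ± 2.62 FPKM. The log2 difference was -0.46 (SE 0.14, limma adjusted p = 0.195) as deposited and -0.25 after median-of-ratios scaling. Irf3 overlaps Bcl2l12 on the opposite strand by 1065 bases, and Bcl2l12 was at 4.55 to 7.19 FPKM with tacrolimus and 5.82 to 9.27 with vehicle. With no strand setting given, reads from the overlap of this pair cannot be told apart.

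Irf7, an interferon-induced amplifier of type I interferon production, overlapped between the groups (ENSMUSG00000025498; chromosome 7, 141262706 to 141266481). It was at 5.73, 2.45, 4.17 and 2.29 FPKM with tacrolimus and 23.06, 5.99, 4.23 and 6.95 with vehicle. Vehicle replicate 3 lay below tacrolimus replicate 1, and vehicle replicate 1 stood far above vehicle replicate 4, the next highest. The means were 3.66 ± 1.62 and 10.1 ± 8.74 FPKM, and the vehicle mean was 5.72 without replicate 1. The log2 difference was -1.04 (SE 0.44, limma adjusted p = 0.268), and it was -0.57 without vehicle replicate 1.

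Irf5, which acts behind Toll-like receptors and is best known from myeloid cells, was near the other end of the level range (ENSMUSG00000029771; chromosome 6, 29526625 to 29541871). It was at 2.79, 0.96, 2.86 and 2.75 FPKM with tacrolimus and 19.81, 3.66, 3.23 and 9.05 with vehicle. The groups did not overlap, but vehicle replicates 2 and 3 lay just above 3 of the tacrolimus libraries. The means were 2.34 ± 0.92 and 8.94 ± 7.72 FPKM, and the vehicle mean was 5.31 without replicate 1. The log2 difference was -1.32 (SE 0.48, limma adjusted p = 0.227), or -0.86 without vehicle replicate 1. Of the 16 macrophage and monocyte markers, 16 also had a lower mean with tacrolimus and 0 were without overlap. Of all genes tested, 75.7% had a lower mean and 10.2% were lower without overlap.

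Irf8, a factor of monocytes, dendritic cells, B cells and activated CD8+ T cells, lies on chromosome 8 from 120736358 to 120756694 (ENSMUSG00000041515). It was at 9.16, 4.52, 5.96 and 5.57 FPKM with tacrolimus and 26.46, 9.70, 15.26 and 15.24 with vehicle. Tacrolimus replicate 1 and vehicle replicate 2 nearly met, and no library crossed over. The means were 6.30 ± 2.0 and 16.7 ± 7.03 FPKM, and the groups differed by -1.23 in log2 (SE 0.29, limma adjusted p = 0.179). The annotated model Gm20388, listed at 1411 to 2141 FPKM, spans Irf8 on the same strand, so the assignment of reads between the pair is uncertain.

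Irf4, which T cell receptor signaling induces, was the lowest member (ENSMUSG00000021356; chromosome 13, 30749226 to 30766976). It was at 0.52, 0.81, 0.70 and 0.81 FPKM with tacrolimus and 3.77, 0.49, 1.40 and 1.96 with vehicle. Vehicle replicate 2 was the lowest of all 8 libraries and vehicle replicate 1 the highest, so the groups overlapped. If every fragment came from the longest annotated transcript, 0.49 FPKM is about 35 fragments and 3.77 FPKM about 284. With no filter on low values the log2 difference was -0.64 (SE 0.35, limma adjusted p = 0.564).

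By mean FPKM over the 8 libraries the order was Irf1 (23.6), Irf3 (19.8), Irf2 (14.9), Irf8 (11.5), Irf9 (8.95), Irf7 (6.86), Irf5 (5.64) and Irf4 (1.31). Among 7 neighbouring pairs, Irf3 exceeded Irf2 in 8 of 8 libraries by a mean log2 ratio of 0.44 ± 0.20 (SD; exact sign-flip permutation p = 0.00781, two-sided, adjusted p = 0.0273), and Irf5 exceeded Irf4 in 8 of 8 by 1.90 ± 0.83 (same p values, the smallest the design allows being 0.00781). The other 5 neighbours did not pass. The pairs were taken from the same 8 libraries that gave these p values, so the test is not an independent check of the order. Irf1 exceeded Irf3 in 2 of 8 libraries, vehicle replicates 1 and 2, and its first place rested on them. In the tacrolimus libraries alone Irf3 led at 16.4 FPKM with Irf1 at 12.3, and Irf1 was below Irf3 in all 4. Irf8 exceeded Irf9 in 3 of 4 vehicle libraries and in 1 of 4 tacrolimus libraries.

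All 8 members had a positive r with the leukocyte level, as did 7852 of 13014 genes tested, and 3 of the 7 tested members passed the adjustment. Over the 8 libraries, Pearson's r with that level was 0.97 for Irf8, 0.94 for Irf5, 0.91 for Irf1 and Irf7, 0.84 for Irf9, 0.80 for Irf4, 0.76 for Irf2 and 0.74 for Irf3. Irf8 (exact permutation p = 9.92e-05, adjusted p = 0.0163), Irf5 (exact permutation p = 0.000397, adjusted p = 0.0262) and Irf9 (exact permutation p = 0.000694, adjusted p = 0.0340) passed after adjustment over 13014 genes, of which 2.88% were called in the positive and 0.0231% in the negative direction. After median-of-ratios and upper-quartile scaling Irf9 no longer passed (adjusted exact permutation p = 0.0597 and 0.104), while Irf5 and Irf8 did. Spearman's rho was 0.95 for Irf8 and Irf9 (exact permutation p = 0.00114, adjusted p = 0.0672) and 0.90 for Irf5 (exact permutation p = 0.00456, adjusted p = 0.128), so no member passed on ranks, where 0.945% of genes did. Leaving out the 2 libraries farthest from the median leukocyte level, vehicle replicate 1 and tacrolimus replicate 2, r was 0.99 for Irf8, 0.97 for Irf2 and 0.91 for Irf9 and Irf3. It was 0.70 for Irf5, 0.67 for Irf4, 0.66 for Irf7 and 0.55 for Irf1, so the high values of those 4 rested on these libraries. No member passed the adjustment over these 6 libraries, and no other gene did. With 1 library left out at a time, 0 to 3 members passed: none without tacrolimus replicate 1 or 2 or vehicle replicate 1 or 4, Irf8 alone without tacrolimus replicate 3 or 4, Irf1, Irf5 and Irf8 without vehicle replicate 2, and Irf8 and Irf9 without vehicle replicate 3. Without tacrolimus replicate 2 or vehicle replicate 1, 0 of the 13014 genes passed. Without any other 1 library, 57 to 302 genes passed in the positive direction. The median r with all 8 libraries was 0.87 over the 8 members and 0.12 over all genes tested. These are 8 of 32 relations computed between the members and 4 marker levels.

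**Figure D2:**
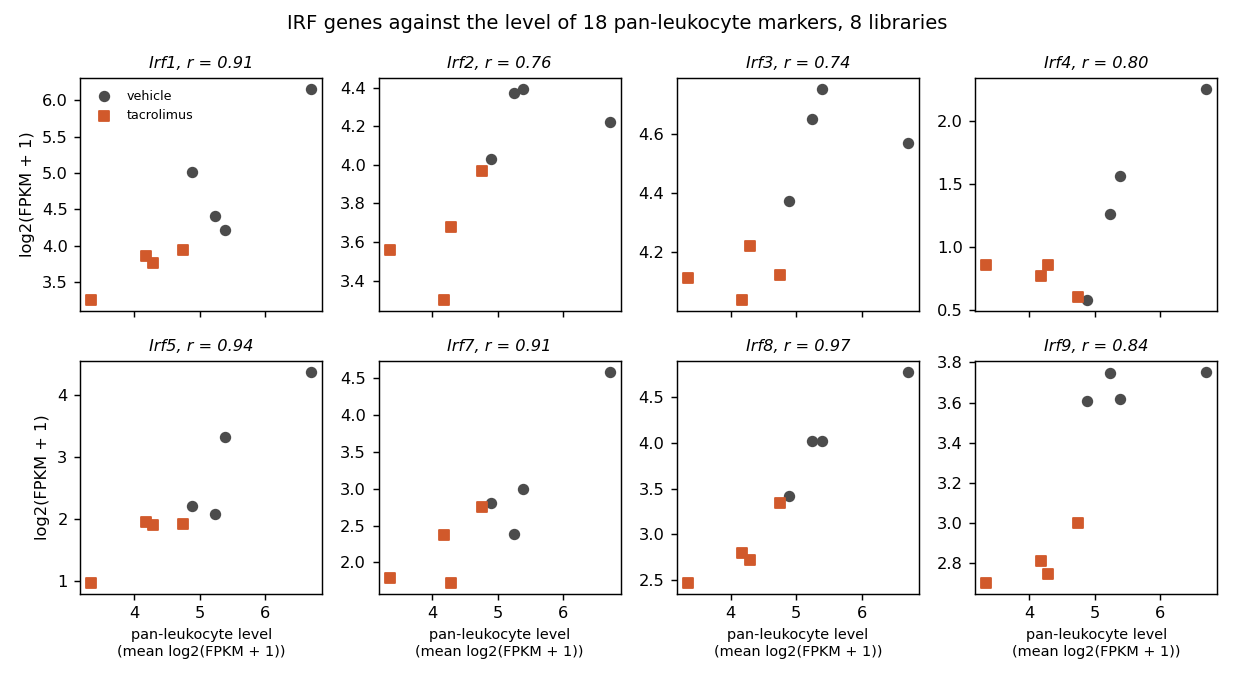
Level of each IRF gene (log2(FPKM + 1), vertical axes that do not start at 0) against the leukocyte level in 4 vehicle (circles) and 4 tacrolimus (squares) libraries, with Pearson's r above each panel. The Irf8 points lie close to a line through both groups (r = 0.97), whereas Irf9 (r = 0.84) forms a lower tacrolimus set and an upper vehicle set.

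Because the leukocyte level itself differed between the groups, the relations were also taken with each group's mean removed, since 4 libraries are too few for r within a group. Irf8 (r = 0.94, exact permutation p = 0.00694), Irf5 (r = 0.89, exact permutation p = 0.0174), Irf7 (r = 0.86, exact permutation p = 0.0313) and Irf1 (r = 0.79, exact permutation p = 0.0486) kept a high r. For Irf9 r was 0.69 (exact permutation p = 0.0712), for Irf4 0.66, for Irf2 0.32 and for Irf3 0.18. No member and no other gene passed the adjustment here, and the smallest p that the 576 orders gave was 0.00174.

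Of the 4 marker levels, Irf5 had its highest r with the macrophage and monocyte level, and differences in r between levels were not tested. Irf5 had r = 0.99 with the macrophage and monocyte level over 8 libraries (exact permutation p = 0.000496, adjusted p = 0.102), 0.98 with group means removed and 0.93 without the 2 farthest libraries. Its rho was 0.88 (exact permutation p = 0.00724, adjusted p = 0.403). No gene was called for that level (0%), and the 2 farthest libraries there were vehicle replicates 1 and 4. Irf8 had r = 0.94 with the T cell level (exact permutation p = 0.000174, adjusted p = 0.0266; 1.73% of genes called positive and 0.00768% negative) and rho 0.95 (exact permutation p = 0.00114, adjusted p = 0.1003), and its r with the macrophage level was 0.81. Without the 2 farthest libraries its r with the T cell level was 0.98 (exact permutation p = 0.0208, adjusted p = 0.800), and no gene passed there. No member passed for that level when any 1 library was left out. In those runs 104 genes passed in the positive direction without tacrolimus replicate 1, 102 without vehicle replicate 3 and 0 otherwise. Irf9 had r = 0.79 with the T cell level (adjusted exact permutation p = 0.0525) and 0.66 with the macrophage level, and with group means removed these were 0.73 and 0.18.

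No member was called for the melanoma level. Pearson's r with the mean log2(FPKM + 1) of 13 melanoma markers ran from -0.30 for Irf7 to 0.44 for Irf3 over 8 libraries, with adjusted exact permutation p from 0.499 to 0.960 among the tested members, while 3.45% of genes were called in the positive and 0.0384% in the negative direction. That background of 449 positive genes fell to 0 with a pseudocount of 0.1, with Spearman correlation or with any 1 library left out, and to 5 and 15 under the 2 other scalings, so nothing is read from the contrast with the members. The median r was -0.09 over the 8 members and 0.39 over all genes tested. With group means removed, Irf8 (r = -0.82, exact permutation p = 0.0434), Irf7 (r = -0.79, exact permutation p = 0.0538), Irf1 (r = -0.76, exact permutation p = 0.0590) and Irf9 (r = -0.70, exact permutation p = 0.0469) were negative, and none passed the adjustment. Irf2 was at -0.00094 and Irf3 at 0.13. In that setting no gene passed in either direction (0% of 13019 genes tested). The median r there was -0.65 over the 8 members and 0.34 over all genes tested. Over all 8 libraries, the negative r of Irf1, Irf4, Irf5, Irf7 and Irf8 rested on vehicle replicate 1, which had the lowest melanoma level at 7.97. Without it all 8 members had a positive r, with a median of 0.51, and over all genes tested the median was 0.54. After median-of-ratios scaling of all 8 libraries, the r of all 8 members was negative. Under that scaling 6046 of 13019 genes tested had a positive r, and the median over them was -0.06.

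**Figure D3:**
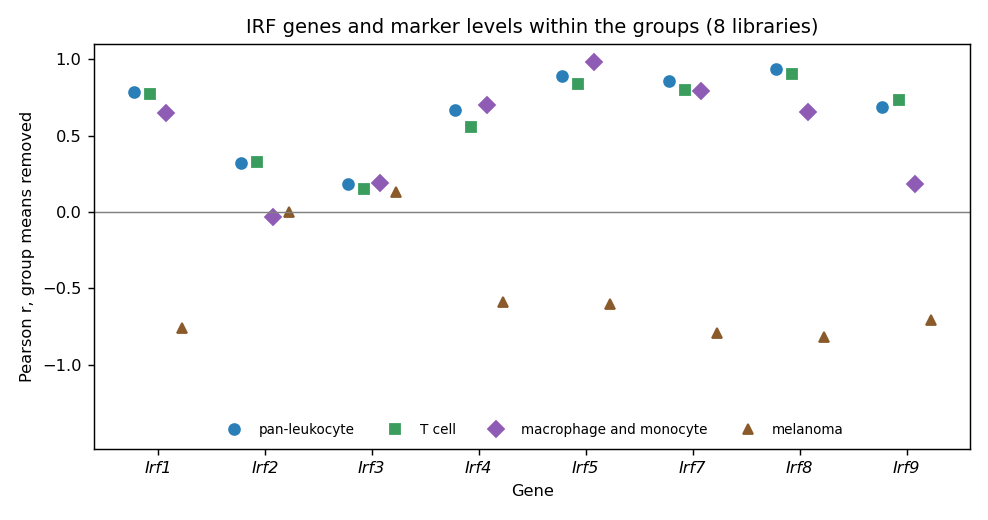
Pearson's r (vertical axis) between each IRF gene and 4 marker levels over 8 libraries after removal of the group means. Irf5 is highest for the macrophage and monocyte level (0.98), Irf8 for the pan-leukocyte level (0.94), and Irf2 and Irf3 lie between -0.03 and 0.33 for all 4.

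The treatment difference was also fitted in limma together with the leukocyte level. It was -0.72 (SE 0.22) for Irf9, -0.42 (SE 0.21) for Irf3 and -0.48 (SE 0.27) for Irf2. It was -0.33 (SE 0.25) for Irf8 and -0.20 (SE 0.39) for Irf1, and the sign turned for Irf5, at 0.18 (SE 0.41), and Irf7, at 0.30 (SE 0.41). No member passed, with limma adjusted p from 0.183 for Irf9 to 0.804 for Irf5. In that fit no gene of the 13032 tested passed either (0% called, smallest limma adjusted p = 0.183), and the median gene lay at -0.29. The treatment and the leukocyte level overlap so far in these 8 libraries that their shares cannot be told apart. With the melanoma level in place of the leukocyte level, Irf8 (-1.54, SE 0.22, limma adjusted p = 0.0285; 0.0285 to 0.436 over all alternatives), Irf9 (-0.93, SE 0.14, limma adjusted p = 0.0285; 0.0285 to 0.392) and Irf1 (-1.65, SE 0.30, limma adjusted p = 0.0367; 0.0367 to 0.780) were called lower. In that fit 2.39% of genes tested were called lower.

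**Figure D4:**
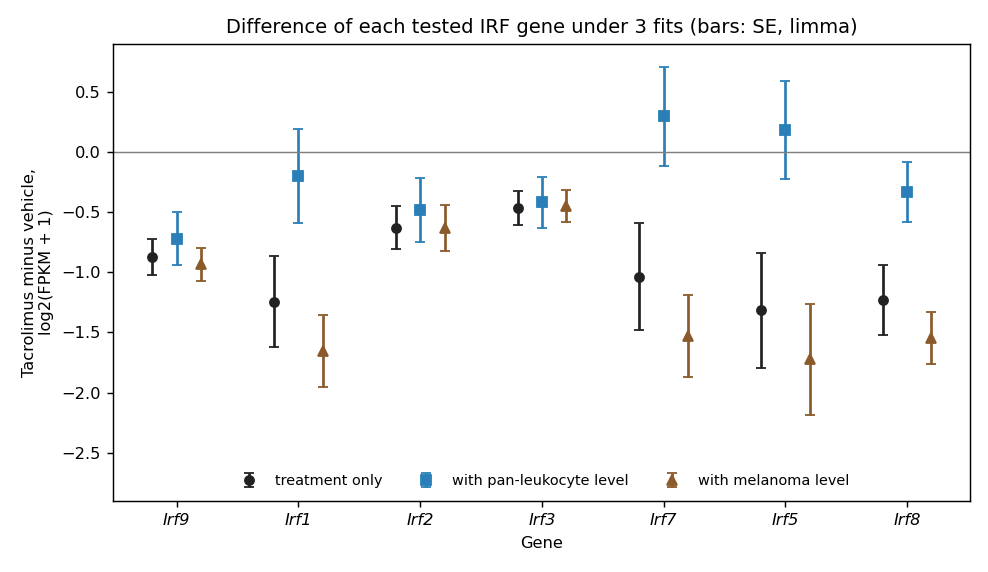
Difference between tacrolimus and vehicle (log2(FPKM + 1), points with SE bars) for the 7 tested IRF genes with treatment alone, with the leukocyte level and with the melanoma level as a further term. Irf1, Irf2, Irf3, Irf8 and Irf9 lie below 0 in all 3 fits, while Irf5 and Irf7 lie above 0 with the leukocyte level.

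Genes around the IRFs in the pathway had lower means as well, and none passed the adjustment in either direction. Their counts are read against all genes tested, of which 75.7% had a lower mean and 10.2% were lower without overlap, with a median log2 difference of -0.19 as deposited and 0.01 after median-of-ratios scaling. Of the receptors and JAK-STAT genes, 14 of 14 tested had a lower mean and 6 did not overlap, with a median log2 difference of -0.75. Socs3, a feedback inhibitor of JAK kinases, was at 13.7 ± 2.40 and 29.7 ± 7.82 FPKM, and Ifnar1, a type I interferon receptor chain, at 16.9 ± 3.05 and 29.1 ± 3.92.

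Among the sensors, adaptors and kinases that activate Irf3, Irf5 and Irf7, 15 of 15 tested had a lower mean, 3 of them without overlap, with a median of -0.39 (all genes: 75.7%, 10.2% and -0.19). Myd88, the Toll-like receptor adaptor, was at 9.25 ± 1.02 and 16.1 ± 4.41 FPKM, Tmem173, which encodes STING, at 19.4 ± 3.43 and 29.4 ± 5.36, and Ticam1 at 3.14 ± 0.74 and 4.89 ± 0.78. Among the partners and coregulators, 9 of 9 tested had a lower mean, 3 of them without overlap, with a median of -0.77. Batf, which pairs with Irf4 and Irf8 on composite elements, was at 4.76 to 9.62 FPKM with tacrolimus, at 56.4 in vehicle replicate 1 and at 12.06 to 15.97 in the other vehicle libraries. Ikzf1, a lymphoid zinc finger factor, was at 2.68 ± 0.68 and 9.19 ± 5.25.

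Targets on the list for Irf1 and interferon gamma signaling had a lower mean in 11 of 11 tested, 7 of them without overlap, with a median of -0.69. Targets of ISGF3 had a lower mean in 15 of 15 tested, 6 of them without overlap, with a median of -0.73 (all genes: 75.7% lower, 10.2% without overlap). Nlrc5, the activator of class I antigen presentation genes, was at 4.42 ± 0.96 and 9.86 ± 4.02 FPKM, and Tap1, the peptide transporter, at 10.7 ± 3.04 and 26.02 ± 14.4. Rsad2, which encodes the antiviral protein viperin, was at 9.13 ± 1.21 and 16.6 ± 2.95 FPKM, and Ifit3 at 6.18 ± 1.48 and 12.2 ± 2.61.

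The genes most like each member were taken as the 3 of 11294 other protein-coding genes with the highest Pearson's r of log2(FPKM + 1) over the 8 libraries, as a description. For Irf9 they included Igtp (0.97) and Anxa11 (0.97), and with group means removed the r of these was 0.66 and 0.19. For Irf1 they were Rrad (0.99), Psme1 (0.98), a proteasome activator subunit, and B2m (0.98), the class I light chain, and with group means removed their r was 0.98, 0.97 and 0.96. For Irf5 they were Adam8 (0.996), Plek (0.99) and Ifi204 (0.99), and for Irf8 Rinl, Ifitm10 and B4galnt1 (0.99 each). Irf7 was closest to Ramp1, St8sia4 and Smim3 (0.98 to 0.99). Irf2 was closest to Ice2, Zgpat and Ermp1 (0.95 to 0.97) and Irf3 to Arhgap27, Dmtf1 and Eloa (0.94 to 0.96). An r over 0.95 was reached by 131 genes for Irf5 and 90 for Irf8, but by 10 for Irf9, 3 for Irf2 and 2 for Irf3.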

How the data were processed

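RNA from 8 samples labelled as CD8+ tumor-infiltrating lymphocytes, 1 library per sample, was measured by RNA-seq. Per the submitters' processing notes, HISAT2 2.1.0, RSEM 1.3.1 and DESeq2 1.24.0 were among the authors' tools and GRCm38.p6 was the build. The deposited values are read here as FPKM made by the authors. The unit was inferred from the values, since the headers name the library only, and the strand setting of counting is not given in the sources used here. Depth was estimated from the steps between low values: 15500000 to 19500000 fragments per library.

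Identifiers were matched to the GENCODE annotation of GRCm38, and 346 of 55487 had no symbol. Levels were tested as log2(FPKM + 1) for 13032 genes at 1 FPKM or more in at least 4 libraries, with limma 3.58.1 in R 4.3.3 (mean-variance trend, no term beside treatment), and p was adjusted by Benjamini-Hochberg across the genes tested. Correlations with 4 marker levels used exact two-sided permutation of the 8 libraries for every gene outside the marker list, adjusted the same way. Promoter windows came from RefSeq tables. The limma fit, the exact permutation of Pearson correlations over 8 libraries and the depth estimate were each tried on simulated data.

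Named genes were every member, up to 3 genes of each pathway list with the smallest unadjusted p, and the 3 genes most correlated with each tested member; some genes that this rule names are not reported here. The members and lists were chosen with earlier results of these data known. Alternatives covered the pseudocount, the filter, the scaling, the limma settings, marker levels as covariates, the replicate number as a block, rank correlation and each library left out.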

Additional observations from a re-analysis of the deposited data

Results flagged for a closer look

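Among the 24 groups of 4 values examined for a library apart from the rest, 2 held one, and chance gives about 1 in 20. Irf5 in tacrolimus replicate 2 was at 0.96 FPKM, where the other 3 tacrolimus libraries were at 2.75 to 2.86, and its gap took 0.942 of the group's range. That library also had the lowest leukocyte level, 3.35. Irf7 in vehicle replicate 1 was at 23.06 FPKM, where the other vehicle libraries were at 4.23 to 6.95, with a gap of 0.856 of the range. That library had the highest leukocyte level, 6.71, and the part of either level in these values was not tested.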

How the results depend on the processing

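The difference of each tested member was below 0 under every alternative run except the leukocyte level as a covariate, where Irf5 was at 0.18 and Irf7 at 0.30. With the T cell level as a covariate Irf7 was at -0.0014 (SE 0.42) and Irf5 at -0.14 (SE 0.42), and Irf5 was not tested at a filter of 5 FPKM. Genes called numbered 324 with the melanoma level as a covariate, 3 of them members, and 0 to 1 with a library left out, where 0 members were called. The gene called without vehicle replicate 1 was higher. With the replicate block, 121 genes and 1 member, Irf8 (limma adjusted p = 0.0348), were called. The replicate numbers are not said to mark pairs, so they were not taken as pairs. Deviations of same-numbered libraries from their group means had correlations of 0.21, 0.28, -0.02 and -0.02. Those of differently numbered libraries ran from -0.32 to 0.15. These values cannot settle whether the numbers mark pairs. Members following the leukocyte level numbered 0 with Spearman correlation, with group means removed and with the 2 farthest libraries left out. They numbered 2 with either other scaling, where Irf9 was lost, and 0 to 3 with a library left out. For that level no gene at all was called with group means removed or with the 2 farthest libraries left out. The same held without tacrolimus replicate 2 or vehicle replicate 1.

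The r with the melanoma level changed sign as follows. With the 2 farthest libraries left out it was 0.52 for Irf1, 0.43 for Irf4, 0.58 for Irf5, 0.32 for Irf7 and 0.33 for Irf8. With median-of-ratios scaling it was -0.11 for Irf2, -0.16 for Irf3 and -0.26 for Irf9, and with upper-quartile scaling -0.15 for Irf9. Spearman's rho was 0.048 for Irf5 and -0.048 for Irf9. With group means removed it was -0.00094 for Irf2 and -0.70 for Irf9. With a library left out it ran from -0.37 to 0.52 for Irf1, -0.45 to 0.45 for Irf4, -0.42 to 0.51 for Irf5, -0.46 to 0.28 for Irf7 and -0.27 to 0.44 for Irf8. By mean log2 value and in the tacrolimus libraries alone, Irf3 came before Irf1. The cause was not tested. Depth limits Irf4 and Irf5 most, whose lowest libraries held about 35 and 30 fragments.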

Other observations

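Irf8 and Irf9 ranked the 8 libraries in the same order (Spearman's rho of 1), a pair chosen after the values were seen, although Irf8 spread 2.73-fold and Irf9 1.11-fold within the vehicle group. Rnf31, the gene whose end overlaps Irf9, was at 2.48 to 6.60 FPKM with tacrolimus and 3.68 to 13.14 with vehicle, so its groups overlapped where those of Irf9 did not. Phrf1, which overlaps Irf7 by 45 bases on the opposite strand, was at 19.91 to 25.80 FPKM with tacrolimus and 19.56 to 28.44 with vehicle. Tnpo3, which overlaps Irf5 by 1045 bases on the opposite strand, was at 25.39 to 30.50 and 26.21 to 39.59. With no strand setting given, reads from the overlaps of Irf7 with Phrf1 and of Irf5 with Tnpo3 cannot be told apart.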
